A study of Mus musculus with 9 samples.

Results

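Oleic acid was compared with its vehicle in 3T3-L1 cells, a mouse fibroblast line of adipocyte precursors that stores fat once it has been induced to differentiate. The comparison used 6 of the 9 libraries of the series, 3 labelled OA and 3 labelled MDI, and covered the 15002 genes of 28965 whose deposited value averaged at least 10 over the 9 libraries. All 9 samples were wild type, had been left at confluence without a change of medium, and then received an adipogenic cocktail for 24 h. The cocktail held insulin at 0.1 µg/mL, the phosphodiesterase inhibitor isobutylmethylxanthine (IBMX) at 30 µg/mL and the glucocorticoid dexamethasone at 0.1 µg/mL. The MDI libraries came from cells given the serum albumin (BSA) vehicle with the cocktail, and the OA libraries from cells given 100 µM oleic acid bound to BSA with it. The remaining group, OA_T0, had oleic acid together with 5 µM T0901317, which activates liver X receptors, and served here only to estimate the spread between libraries. Cells without the cocktail were not analysed here, so every difference is what the acid added to an induction that both groups shared. The labels do not say whether the 3 libraries of a group were separate cultures, so p-values measure the spread between these libraries, which may be technical.

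Oleic acid is the commonest monounsaturated fatty acid in animal fat. Inside a cell, fatty acids are activated to acyl-CoA, built into triglyceride and phospholipid, or burned in mitochondria and peroxisomes. They and their derivatives also bind the peroxisome proliferator-activated receptors (PPARs), nuclear receptors that switch on genes of fat uptake and combustion. In preadipocytes, conversion to fat cells goes with loss of contractile fibres, a remodelled matrix and withdrawal from growth factor signalling. The PPAR programme, lipid droplet coats and the ATF4 amino acid response changed here too. The account below mainly concerns genes outside the lists drawn up for them. Whether those genes belong to the same programmes was not tested.

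The values are normalised read counts per gene, not adjusted for gene length, so levels are compared mainly between libraries. Where genes are ranked in deposited units or called low, gene length enters. Estimated depths ran from 21.4 to 59.9 M fragments in the 6 libraries, and a gene needed between 1.35 and 4.03 units to reach 3 fragments, the floor of detection used here, which covers counting error only. A ribosomal RNA gene held 0.649% of the values in OA replicate 1 and 4.40% to 5.51% in the other 5 libraries, and the mean log2 level of replication-dependent histone genes, relative to the MDI mean, was -0.32 in OA replicate 1 and -0.09 and 0.05 in OA replicates 2 and 3. Whether this bears on any result was not tested, but each rise or fall below also passed without that library. The label fits the markers: the 8 preadipocyte and fibroblast markers summed to 188607 to 216633 in MDI and 215678 to 237219 in OA, while Adipoq, Plin1, Cidec, Retn and Cfd, markers of mature fat cells, stayed at or below 6.76 in every library. Fabp4, an early adipocyte marker, was the exception (289, 381 and 452 in MDI and 1825, 1862 and 2383 in OA). Markers of leukocytes, epithelium, skeletal muscle and neural cells reached at most 2.01 in any library and those of endothelium at most 8.70. In bulk RNA, fewer cells of a type and less RNA per cell cannot be told apart.

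A gene is said to have risen or fallen when limma's adjusted p, by the Benjamini-Hochberg method over all 15002 genes, was under 0.05 in the fit of all 9 libraries and in each of 9 fits that left out 1 library, with the same sign, and the 3 OA values did not overlap the 3 MDI values. By this rule, 186 genes rose (1.24% of those tested) and 146 fell (0.973%), of which 91 and 39 moved by at least 1.5-fold. With all libraries alone, 514 genes were higher (3.43%) and 504 lower (3.36%), or 6.79% in either direction. Those further genes lost the call when some single library was left out, and they are given below as passing with all libraries only. The changes were small at the centre: the median log2 fold change was 0.40 among the 514 and -0.34 among the 504, against 0.01 over all tested genes. The 3 values of each group lay apart for 2017 genes on the higher side (13.4%) and 1893 on the lower (12.6%), which is the background for any such separation below. For a gene that rose or fell, separation is part of the rule and adds no evidence. The fit lets the variance follow the mean level of a gene. Without that trend 16 of the genes that the naming rule selected and that appear below lose the call, and that p is given beside each. Genes named outside that rule were not checked in this way. Gene lists are described by their counts and medians, and a gene can belong to more than one of them.

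**Figure D1:**
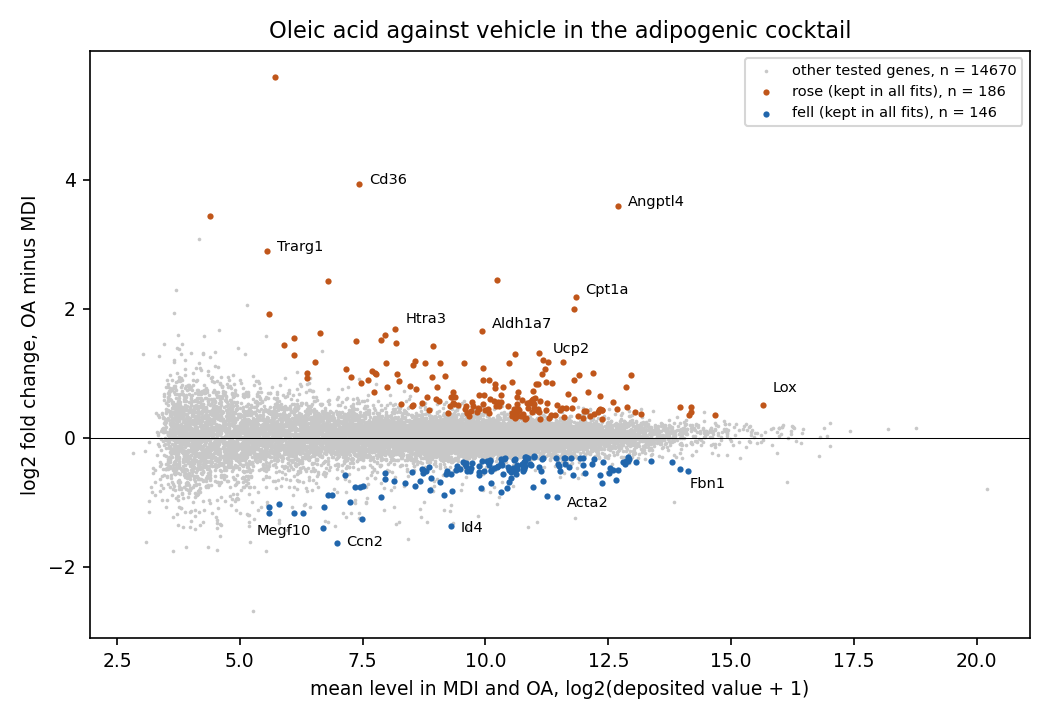
Each point is 1 of 15002 tested genes, with its mean level over the MDI and OA libraries on the horizontal axis, as log2(deposited value + 1), and its log2 fold change of OA over MDI on the vertical axis. The 186 genes that rose are orange and the 146 that fell are blue; labelled examples are Cd36 at 3.93 and Angptl4 at 3.60 among the rises and Ccn2 at -1.62 among the falls.

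Genes that handle retinoids and aldehydes showed one of the clearer shifts outside fat oxidation. Retinoids are made and cleared by dehydrogenases and cytochromes that also act on aldehydes from lipids, and retinoic acid restrains adipogenesis. Of 21 tested members, 5 rose (Aldh1a7, Cyp26b1, Aldh1a1, Aldh9a1 and Retsat), 1 fell (Adh7), and the median log2 fold change was 0.11. Aldh1a7, a cytosolic aldehyde dehydrogenase, measured 389, 454 and 576 in MDI and 1347, 1401 and 1661 in OA. Its mean rose 3.11-fold (log2 fold change 1.65, SE 0.13, limma adjusted p = 1.21e-06). Aldh1a1, which makes retinoic acid from retinal, rose 2.28-fold, from 198, 259 and 237 in MDI to 469.8, 529 and 580.0 in OA (log2 fold change 1.19, SE 0.15, limma adjusted p = 0.000228). The pair are close paralogs, and reads that fit both cannot be assigned to either in these values. Cyp26b1, a cytochrome that breaks down retinoic acid, measured 159, 136 and 167 in MDI and 457, 404 and 416 in OA, a 2.77-fold rise with no overlap (log2 fold change 1.47, SE 0.12, limma adjusted p = 2.79e-06). Enzymes on the making and on the clearing side of retinoic acid were both higher. Retsat, a retinol saturase induced during fat cell formation, rose 1.58-fold (log2 fold change 0.66, SE 0.07, limma adjusted p = 4.99e-05). Aldh9a1, which oxidises an aldehyde on the route to carnitine, was tight in MDI at 858, 855 and 879 and stood at 1425, 1402 and 1598 in OA (log2 fold change 0.77, SE 0.07, limma adjusted p = 4.04e-06). Adh7, a retinol-oxidising alcohol dehydrogenase, went the other way, from 1775, 1865 and 1852 to 1386, 1444 and 1215 (log2 fold change -0.44, SE 0.07, limma adjusted p = 0.00103). Dhrs3, which turns retinal back to retinol, measured 45.5, 37 and 59.7 in MDI and 92.8, 93.9 and 98.3 in OA and passed with all libraries only (limma adjusted p = 0.0133).

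Peroxisomes shorten very long and branched fatty acids and dispose of the hydrogen peroxide made on the way. Of 46 tested peroxisomal genes, 4 rose (Ech1, Pex11a, Pxmp4 and Cat), 0 fell, and the median log2 fold change was 0.11; Crot was among those higher with all libraries only. Ech1, an isomerase that prepares unsaturated acyl-CoA for oxidation, measured 775, 919 and 984 in MDI and 1944, 1806 and 2192 in OA. Each OA library was well above the highest MDI library, and the rise in means was 2.22-fold (log2 fold change 1.15, SE 0.09, limma adjusted p = 1.56e-06). Pex11a, which elongates and divides peroxisomes, measured 148, 159 and 158 in MDI and 327, 372 and 344 in OA, a 2.24-fold rise (log2 fold change 1.16, SE 0.15, limma adjusted p = 0.000183). The MDI values of Pex11a were close together and far from OA. Catalase (Cat), the peroxide-removing enzyme, moved less, from 1212, 1337 and 1488 to 1734, 1735 and 1882 (log2 fold change 0.41, SE 0.08, limma adjusted p = 0.00443, or 0.0543 without the variance trend), and Pxmp4, a peroxisomal membrane protein, rose 1.45-fold (log2 fold change 0.53, SE 0.10, limma adjusted p = 0.0063, or 0.0625 without the variance trend). The biogenesis factors of the list, which import peroxisomal proteins, gave 0 members that rose apart from Pex11a.

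To show what stands before such genes, the 250 bases ahead of the transcription start were searched in RefSeq promoter windows (GRCm38.p6, while the submitters' notes name mm9) for AGGTCANAGGTCA, the direct repeat that PPARs bind with their partner RXR, on both strands. A window was matched by symbol for 9911 tested genes. The exact letters occurred in 5 of them (0.0504%) and in 0 of the 135 windows of genes that rose. Up to 2 mismatches were met in 278 windows (2.80%), in 9 of 135 among genes that rose (6.67%) and in 3 of 116 among genes that fell (2.59%). The peroxisomal list had a match in 1 of 33 windows (3.03%), and the PPAR and fat oxidation list in 3 of 20 (15%). Of the 9, Tmem176a and Tmem176b share the same bases, read on opposite strands, and Cd36, Etfa and Plin2 are on the PPAR list. A match is a description of letters and not a binding site, and the windows leave out introns and distant elements. The 3 windows below belong to Cd36, from the PPAR list, and to Aldh9a1 and Cat, outside it, to let the matched letters be compared; they read 5′ to 3′ along the gene, with the matched stretch in capitals. Aldh9a1 lies on the plus strand (chr1:167349741-167349990) with its match starting at -144 from the transcription start. Cat (chr2:103485154-103485403) and Cd36 (chr5:17835897-17836146) lie on the minus strand with matches at -204 and -63.
Aldh9a1: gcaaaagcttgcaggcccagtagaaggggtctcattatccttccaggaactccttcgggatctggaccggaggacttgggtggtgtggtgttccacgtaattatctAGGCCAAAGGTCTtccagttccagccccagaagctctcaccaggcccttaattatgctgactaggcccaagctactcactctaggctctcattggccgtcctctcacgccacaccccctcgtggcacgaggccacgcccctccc
Cat: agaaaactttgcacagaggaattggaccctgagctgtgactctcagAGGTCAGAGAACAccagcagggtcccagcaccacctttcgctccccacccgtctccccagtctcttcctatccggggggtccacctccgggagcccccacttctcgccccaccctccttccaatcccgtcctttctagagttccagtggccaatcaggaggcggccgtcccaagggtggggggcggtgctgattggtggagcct
Cd36: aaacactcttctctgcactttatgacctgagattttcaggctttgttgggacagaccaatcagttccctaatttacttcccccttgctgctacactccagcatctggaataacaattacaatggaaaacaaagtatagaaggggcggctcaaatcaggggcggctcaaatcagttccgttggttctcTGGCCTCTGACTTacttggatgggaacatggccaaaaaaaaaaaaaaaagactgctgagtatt
Cd36, a fatty acid transporter at the cell surface, had among the largest rises of all, from 16.7, 26.1 and 18 in MDI to 263, 309.9 and 391 in OA (log2 fold change 3.93, SE 0.28, limma adjusted p = 4.28e-07), while Cat, with a match of the same kind, rose 1.33-fold.

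Oxylipins, the signalling lipids made by oxygenating polyunsaturated fatty acids, gave the largest share of rising members after fat oxidation. Of 20 tested genes, 6 rose, 0 fell, and the median log2 fold change was 0.18. Ptgs1, the constitutive cyclooxygenase, measured 3460.5, 3709.8 and 3769 in MDI and 4641, 4418 and 4499.9 in OA (log2 fold change 0.31, SE 0.05, limma adjusted p = 0.00267). Ptgs2, the inducible one, measured 782, 832 and 697 in MDI and 625, 576 and 433 in OA, lower without overlap but with all libraries only (log2 fold change -0.51, SE 0.14, limma adjusted p = 0.0394). Downstream of both, Ptges, which makes prostaglandin E2, rose 1.35-fold, from 1721, 1689.6 and 2029 to 2338, 2274 and 2715 (log2 fold change 0.43, SE 0.08, limma adjusted p = 0.00512). Ptgfr, the receptor of prostaglandin F2α, a signal that holds back adipogenesis, rose 1.27-fold (log2 fold change 0.35, SE 0.06, limma adjusted p = 0.00375). Akr1b3, an aldose reductase that can also make prostaglandin F2α, had the smallest p of the list, at 1023, 1022 and 1108 in MDI and 1934, 1826 and 1991 in OA (log2 fold change 0.87, SE 0.07, limma adjusted p = 3.43e-06). For Akr1b3 the gap between the groups was far wider than the spread inside either. The epoxide branch moved further on a low base: Ephx2, the soluble epoxide hydrolase, measured 36.9, 30.5 and 51.8 in MDI and 106, 91.2 and 89.3 in OA, a 2.41-fold rise (log2 fold change 1.28, SE 0.23, limma adjusted p = 0.00328). Cyp1b1, a cytochrome that hydroxylates fatty acids, steroids and retinoids, measured 15901, 15446 and 16549.5 in MDI and 21192, 21962 and 20343 in OA (log2 fold change 0.41, SE 0.07, limma adjusted p = 0.00248). Ptges, Ptgfr and Adh7 were named after their values were seen, to complete their lists.

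Among genes that build and remodel membrane lipids, 3 of 37 rose (Lpcat3, Lpcat1 and Agpat3) and 1 fell (Chka), with a median log2 fold change of 0.06. Lpcat3, which loads polyunsaturated acyl chains onto lysophospholipids, measured 1389, 1504 and 1599 in MDI and 2407, 2406 and 2644 in OA, and its 1.66-fold rise left a gap between the groups (log2 fold change 0.73, SE 0.07, limma adjusted p = 5.93e-06). Lpcat1, which prefers saturated chains, measured 1175, 1236 and 1283 in MDI and 1985, 1937 and 2139 in OA and rose to much the same extent (1.64-fold, log2 fold change 0.71, SE 0.07, limma adjusted p = 1.53e-05). Agpat3, an acyltransferase of phosphatidic acid synthesis, rose 1.39-fold (log2 fold change 0.47, SE 0.08, limma adjusted p = 0.00203). Choline kinase Chka, the first step from choline to phosphatidylcholine, was 1.34-fold lower, from 1552, 1457 and 1423 to 1136, 1138 and 1039.7 (log2 fold change -0.42, SE 0.06, limma adjusted p = 0.00101). Pcyt1a, the rate-limiting step after it, measured 1508, 1688 and 1537 in MDI and 1621, 1584 and 1631 in OA and did not pass (limma adjusted p = 0.819). Of 28 sphingolipid genes, 2 rose and 0 fell (median 0.13). S1pr3, a receptor for sphingosine 1-phosphate, measured 1920.4, 1728 and 1965 in MDI and 3361, 3105 and 3681 in OA (log2 fold change 0.85, SE 0.08, limma adjusted p = 1.6e-05). Ormdl3, which restrains serine palmitoyltransferase, rose 1.3-fold (log2 fold change 0.37, SE 0.06, limma adjusted p = 0.00254), while Sptlc2, a subunit of that enzyme, measured 1741, 1646 and 1599 in MDI and 1590.5, 1500.0 and 1488 in OA and did not pass (limma adjusted p = 0.306). In fatty acid synthesis, 1 of 23 rose and 1 fell (median -0.02). The riser was Acsbg1, an acyl-CoA synthetase, at 28.8, 35.9 and 37.2 in MDI and 189, 162 and 212 in OA (log2 fold change 2.43, SE 0.20, limma adjusted p = 2.02e-06). The faller was Mid1ip1, an activator of acetyl-CoA carboxylase, at 1876, 1835 and 1853 in MDI and 1265, 1358 and 1365 in OA (log2 fold change -0.48, SE 0.07, limma adjusted p = 0.000771).

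**Figure D2:**
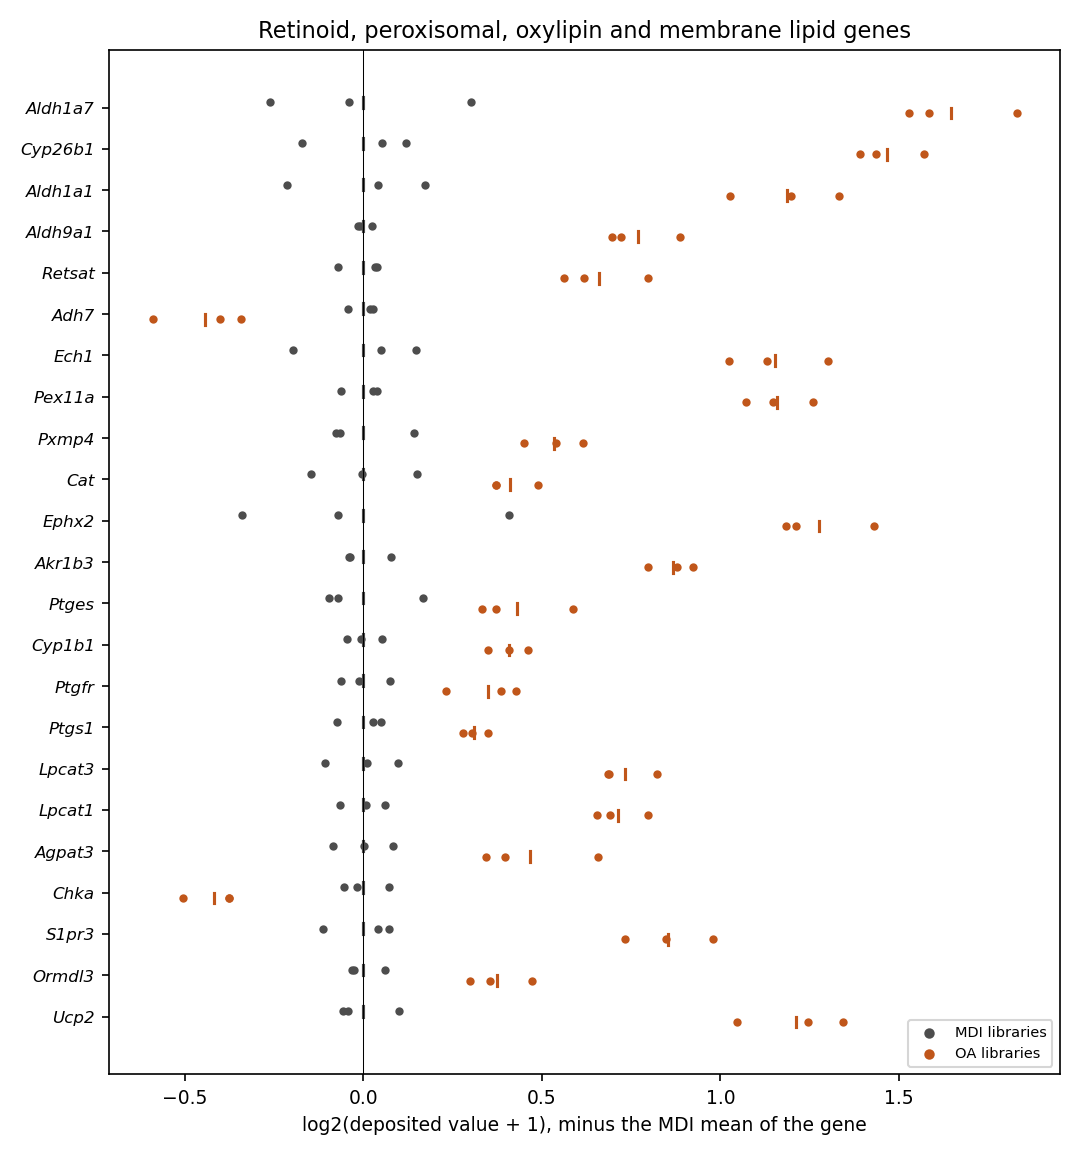
Each row is a gene of retinoid, peroxisomal, oxylipin, membrane lipid or uncoupling function, and each point is 1 library, as log2(deposited value + 1) minus the gene's MDI mean; grey marks MDI, orange OA, and the short bars are group means (n = 3). In all 23 rows the 3 orange points lie clear of the 3 grey points, to the left for Adh7 and Chka and to the right for the others. The rows are a choice among genes that rose or fell, so this separation follows from the rule.

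In carbon use beyond fat, the changes included rises of Ucp2 and Pdk4 and a fall of Hk2. Ucp2, a mitochondrial carrier that can lower the coupling of respiration, measured 1327, 1339 and 1477 in MDI and 3274, 2851 and 3503 in OA. The groups were far apart, with a 2.32-fold rise (log2 fold change 1.21, SE 0.08, limma adjusted p = 1.05e-07). It was the 1 of 7 tested uncoupling and thermogenic genes that rose, and 0 fell. Pdk4 and Pdk1, kinases that close the entry of pyruvate into the citrate cycle, were the 2 of 19 members that rose on the pyruvate list. Pdk4 is also on the PPAR and fat oxidation list. Pdk4 measured 1795, 1941 and 1915 in MDI and 4386, 4251 and 4172 in OA (log2 fold change 1.18, SE 0.06, limma adjusted p = 5.95e-09). Pdk1 measured 3567, 4172 and 4126 in MDI and 4926, 4913 and 5155 in OA, a smaller step (log2 fold change 0.34, SE 0.07, limma adjusted p = 0.00705, or 0.0717 without the variance trend). Of 23 genes of glucose uptake and glycolysis, 0 rose and 2 fell, both at the first steps, while the median of the list was 0.12. Hexokinase 2 (Hk2), which traps glucose in the cell, measured 1486, 1429.6 and 1224 in MDI and 855, 849 and 843 in OA, with the 3 OA values close together (log2 fold change -0.70, SE 0.09, limma adjusted p = 0.000282). Slc2a1, the basal glucose transporter, measured 1751, 1695 and 1714 in MDI and 1389, 1312 and 1423 in OA (log2 fold change -0.32, SE 0.06, limma adjusted p = 0.00383). On the list of citrate cycle enzymes 1 of 25 rose, and it was Idh1, the cytosolic and peroxisomal isocitrate dehydrogenase that makes NADPH, at 3593, 3985 and 4469 in MDI and 6669.5, 5849 and 6396 in OA (log2 fold change 0.65, SE 0.08, limma adjusted p = 0.000109). Citrate synthase (Cs), in the mitochondrion, measured 6863, 7351 and 7294 in MDI and 6796, 6605 and 7099.9 in OA and did not pass (limma adjusted p = 0.59). Of 45 subunits of the respiratory chain, 0 rose and 0 fell, with a median of 0.07. The hypoxia and mitophagy list had 2 of 23 that rose, Pdk1 and the mitochondrial protein Fam162a (1.27-fold, log2 fold change 0.34, SE 0.06, limma adjusted p = 0.00439, or 0.0509 without the variance trend), and 1 that fell, Slc2a1. Vegfa, a classic target of hypoxia, measured 3770.1, 3359 and 3035 in MDI and 2756, 2662 and 2505 in OA, lower with all libraries only (limma adjusted p = 0.0295).

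Genes of insulin action and secreted signals gave a few individual changes. On the list from the insulin receptor to AKT, 2 of 32 rose and 0 fell (median 0.03). Trarg1, a membrane protein in the traffic of the insulin-sensitive glucose transporter, went from 10.8, 7.62 and 12.4 to 79.4, 72.5 and 93.3 (log2 fold change 2.89, SE 0.36, limma adjusted p = 0.000164). Deptor, an inhibitor of mTOR that favours adipogenesis, measured 1488, 1606 and 1649 in MDI and 2238, 2368 and 2306 in OA (log2 fold change 0.54, SE 0.07, limma adjusted p = 0.000247). The receptor Insr measured 1644, 1505 and 1519 in MDI and 1649.8, 1646 and 1443 in OA and did not pass (limma adjusted p = 0.907). Irs1, its main docking protein in fat cells, measured 764, 919 and 893 in MDI and 578, 733 and 655 in OA and was lower with all libraries only (limma adjusted p = 0.0463). Pappa, a protease that frees insulin-like growth factors from their carrier, was the 1 of 13 members of the IGF list that fell, at 2160.3, 2049.7 and 1849 in MDI and 1505, 1611 and 1235 in OA (log2 fold change -0.48, SE 0.09, limma adjusted p = 0.0058, or 0.0786 without the variance trend and 0.0525 without the filter). The ligands lay on opposite sides, without overlap and with all libraries only: Igf1 measured 356, 422 and 501 in MDI and 617, 615 and 599 in OA (limma adjusted p = 0.0249). Igf2 measured 7434, 7041 and 6800.1 in MDI and 6117, 5941 and 5765 in OA (limma adjusted p = 0.0474). Of 22 secreted adipokines and hormones, 2 rose and 1 fell (median -0.14). Besides Angptl4, which blocks lipoprotein lipase, the riser was Rarres2, the adipokine chemerin, at 121, 83.9 and 105 in MDI and 214, 160.3 and 227 in OA (log2 fold change 0.95, SE 0.17, limma adjusted p = 0.00361). Lipocalin Lcn2, a carrier of iron-binding molecules that glucocorticoids induce, measured 2132, 1733 and 1968 in MDI and 1528, 1322 and 1553 in OA (log2 fold change -0.40, SE 0.08, limma adjusted p = 0.00689, or 0.0734 without the variance trend).

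Regulators of the switch from precursor to fat cell moved in both directions. Of 28 adipogenic transcription factors, 1 rose and 2 fell, with a median of 0.06. With all libraries only, 3 more were higher (Stat5a, Zfp423 and Rxra) and 3 lower (Klf2, Klf6 and Egr2). Ebf2, a factor that marks precursors of brown and beige fat, measured 136, 158 and 113 in MDI and 272, 231 and 252 in OA, a 1.85-fold rise (log2 fold change 0.90, SE 0.13, limma adjusted p = 0.000844). Klf7, which opposes adipogenesis, was 1.37-fold lower, from 1293, 1390.4 and 1335 to 1072, 981 and 876 (log2 fold change -0.46, SE 0.07, limma adjusted p = 0.00155). Klf4, an early factor induced by cAMP, measured 1019, 1138 and 1076 in MDI and 774, 761 and 845 in OA (log2 fold change -0.44, SE 0.08, limma adjusted p = 0.00375). Of 36 nuclear receptors and coactivators, a list that shares Pparg, Nr3c1 and Rxra with the one before, 0 rose and 0 fell, with Rxra higher and Pprc1, Nr4a1 and Nr2f2 lower with all libraries only. Of 20 preadipocyte genes, 2 rose and 1 fell (median 0.16). The risers were Pdgfra, the receptor that marks fat precursors, at 12785, 12386 and 14657 in MDI and 18137, 18160.0 and 18906 in OA (log2 fold change 0.47, SE 0.09, limma adjusted p = 0.00406, or 0.0665 without the variance trend), and Ccn5. The latter, a matrix protein of precursors, measured 1294, 1104 and 1326 in MDI and 1889, 1756 and 2157 in OA (log2 fold change 0.64, SE 0.09, limma adjusted p = 0.000771). Sox9, a factor that keeps precursors undifferentiated, measured 2405, 2559 and 2622 in MDI and 1979.7, 1931 and 2126 in OA (log2 fold change -0.33, SE 0.06, limma adjusted p = 0.00468). Dlk1, the surface protein that defines preadipocytes, measured 35083, 36649 and 41024 in MDI and 33863, 33614 and 39854 in OA and did not pass (limma adjusted p = 0.707). The sum of the 8 preadipocyte and fibroblast markers given above was higher in OA on average, with ranges that overlapped between 215678 and 216633.

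Genes of contractile fibres and of the mechanically driven co-activators YAP and TAZ included several of the larger falls. Myosin and actin genes are switched on by serum response factor (SRF) through a short A/T-rich element, the CArG box, while YAP and TAZ act through TEAD proteins, and both respond to stretch, spreading and TGF-β. Of 32 tested contractile and SRF genes, 4 fell (Acta2, Zyx, Pdlim5 and Myl9) and 0 rose, with a median of -0.20. Another 6 were lower with all libraries only: Actn1, Tgfb1i1, Vcl, Flna, Myh9 and Actg1. Smooth muscle actin (Acta2) measured 2995, 4056 and 4029 in MDI and 1988, 1754 and 2076 in OA, a 1.9-fold fall (log2 fold change -0.92, SE 0.10, limma adjusted p = 3.26e-05). MDI replicate 1 was the lowest of its group for Acta2, and even it lay above all OA libraries. Myl9, a regulatory light chain of smooth muscle myosin, measured 119.7, 140.3 and 162 in MDI and 79.4, 75.1 and 48.2 in OA (log2 fold change -1.07, SE 0.19, limma adjusted p = 0.00267). Zyxin (Zyx), a protein of focal adhesions and stress fibres, measured 5763, 6624 and 6099 in MDI and 4011, 4124 and 4241 in OA (log2 fold change -0.58, SE 0.06, limma adjusted p = 6.18e-05). Pdlim5, a scaffold on actin fibres, measured 3036, 3414 and 3574 in MDI and 2473, 2525 and 2403 in OA (log2 fold change -0.43, SE 0.06, limma adjusted p = 0.000705). For all 4 genes the highest OA library was below the lowest MDI library, as the rule requires. Tagln, another smooth muscle protein, measured 229, 278 and 301 in MDI and 200.2, 234 and 235 in OA and did not pass (limma adjusted p = 0.242).

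Of 29 YAP and TAZ targets, 3 fell (Ccn2, Ankrd1 and Ccn1) and 0 rose, with a median of -0.15. Ccn2, a matrix protein also induced by TGF-β, had the largest fall of the 146, from 139, 196 and 233 to 61.5, 51 and 66.9 (log2 fold change -1.62, SE 0.19, limma adjusted p = 7.45e-05). Ankrd1, a nuclear protein that muscle and fibroblasts make under strain, measured 222, 283 and 246 in MDI and 128, 101 and 87.3 in OA (log2 fold change -1.25, SE 0.14, limma adjusted p = 8.34e-05). Ccn1, a matrix protein that is also an immediate early gene, measured 3623, 4782 and 4277 in MDI and 2628, 2852 and 3012 in OA (log2 fold change -0.57, SE 0.08, limma adjusted p = 0.000749). The highest OA library was below the lowest MDI library for each of the 3, as the rule requires. Of 28 genes of the TGF-β pathway, 4 fell and 0 rose, with a median of -0.0017. They included Ccn2, the nuclear corepressor Tgif1 (1.36-fold lower, log2 fold change -0.44, SE 0.07, limma adjusted p = 0.00162) and Inhba. Inhba, the subunit of activin A, measured 1069.8, 1219.6 and 1041 in MDI and 764, 849 and 634 in OA (log2 fold change -0.57, SE 0.10, limma adjusted p = 0.00259). The ligand Tgfb1 measured 423, 417 and 472 in MDI and 360.2, 445 and 396 in OA and did not pass (limma adjusted p = 0.485). Of 24 members of the BMP list, 1 fell and 0 rose. It was Id4, a protein that ties up helix-loop-helix factors, at 754, 968 and 999 in MDI and 328, 390.4 and 331 in OA, a 2.59-fold fall (log2 fold change -1.37, SE 0.11, limma adjusted p = 1.56e-06).

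The same promoter windows were searched on both strands for GGAATG, the letters of the TEAD element, and for the CArG box, whose last letters can overlap the TEAD element. No mismatch was allowed in either, unlike the search for the direct repeat, so stretches a letter away from a CArG box were not counted. The TEAD letters stood in 12 of 21 windows of YAP and TAZ targets (57.1%) and 9 of 27 of contractile genes (33.3%), against 1241 of 9911 (12.5%) over all genes. They stood in 21 of 116 windows of genes that fell (18.1%) and 23 of 135 of genes that rose (17.0%). The CArG box was found in 8 of 27 contractile windows (29.6%) and 0 of 21 YAP and TAZ windows. It stood in 3 of 116 windows of genes that fell (2.59%), 1 of 135 of genes that rose (0.741%) and 139 of 9911 over all (1.40%). These lists collect genes known as targets of the same factors, so their shares are not independent of the letters searched. The 4 windows below are a choice of genes that fell, with matches in capitals, 5′ to 3′ along the gene. Windows of other list members with a match are not shown, and Ccn2 had no window. Ankrd1 (chr19:36119845-36120094, minus strand) carries GGAATG at -210 and -123 from the start of transcription. Acta2 (chr19:34255374-34255623, minus strand) carries it at -146, and Ccn1 (chr3:145649986-145650235, minus strand) carries its complement at -103. Myl9 (chr2:156775214-156775463, plus strand) carries a CArG box at -161.
Ankrd1: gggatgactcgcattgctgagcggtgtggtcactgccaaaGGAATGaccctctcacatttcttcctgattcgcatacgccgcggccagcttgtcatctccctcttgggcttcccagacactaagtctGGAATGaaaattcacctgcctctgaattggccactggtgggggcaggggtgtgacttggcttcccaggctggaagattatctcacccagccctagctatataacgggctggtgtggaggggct
Acta2: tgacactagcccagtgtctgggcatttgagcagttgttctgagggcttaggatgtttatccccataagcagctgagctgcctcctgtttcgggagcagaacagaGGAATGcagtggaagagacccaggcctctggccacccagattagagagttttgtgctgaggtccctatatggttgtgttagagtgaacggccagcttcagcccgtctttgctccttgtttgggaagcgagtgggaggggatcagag
Ccn1: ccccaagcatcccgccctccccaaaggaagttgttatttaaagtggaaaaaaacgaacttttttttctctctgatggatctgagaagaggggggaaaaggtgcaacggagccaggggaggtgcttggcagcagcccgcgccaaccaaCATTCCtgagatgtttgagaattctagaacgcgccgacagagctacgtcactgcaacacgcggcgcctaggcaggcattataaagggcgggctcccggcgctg
Myl9: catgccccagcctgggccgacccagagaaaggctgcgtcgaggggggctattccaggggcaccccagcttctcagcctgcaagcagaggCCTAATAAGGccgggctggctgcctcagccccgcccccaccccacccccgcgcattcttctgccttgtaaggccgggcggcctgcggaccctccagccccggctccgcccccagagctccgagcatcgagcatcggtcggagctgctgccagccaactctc
The Acta2 window also holds ccctatatgg and ccttgtttgg, each a letter away from a CArG box and so not marked. In mean level Ankrd1, Acta2, Ccn1 and Myl9 were 2.38-fold, 1.9-fold, 1.49-fold and 2.08-fold lower in OA. Whether the matches bear on these falls was not tested.

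Some signals that drive growth through the ERK kinases were lower, and so were several of the genes that ERK switches on to limit itself. Of 41 growth factors and receptor tyrosine kinases, 4 fell and 2 rose (median -0.08). Hbegf and Ereg, ligands of the epidermal growth factor receptor, both fell. Hbegf measured 209, 217 and 188 in MDI and 143, 106 and 113 in OA (log2 fold change -0.76, SE 0.15, limma adjusted p = 0.00618). Ereg measured 2008, 2153 and 1992 in MDI and 1609, 1556 and 1255 in OA (log2 fold change -0.48, SE 0.09, limma adjusted p = 0.00328). The receptor Egfr measured 2246, 1862 and 2036 in MDI and 2213, 2365 and 2287 in OA and did not pass (limma adjusted p = 0.261). Csf1, the macrophage growth factor, was 1.26-fold lower (log2 fold change -0.34, SE 0.06, limma adjusted p = 0.00281). Megf10, a receptor for engulfment, measured 142, 163 and 142 in MDI and 63.8, 42.9 and 63.2 in OA, the second largest fall by fold (log2 fold change -1.40, SE 0.17, limma adjusted p = 0.000164). The angiopoietins, ligands of the endothelial receptor TIE2, went up: Angpt1 measured 2769, 2770.3 and 3191 in MDI and 4085, 4106 and 3818 in OA (log2 fold change 0.46, SE 0.08, limma adjusted p = 0.00254, or 0.0523 without the variance trend). Angpt4 was far less covered and moved further, at 35.6, 28.3 and 37.2 in MDI and 105, 81.8 and 116 in OA (log2 fold change 1.55, SE 0.23, limma adjusted p = 0.000727).

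Of 26 ERK feedback genes, 5 fell (Dusp6, Dusp5, Dusp4, Dusp8 and Spry1) and 1 rose (Dusp10), with a median of -0.10. In this list all calls made with all libraries held when any single library was left out. Dusp6, a cytoplasmic phosphatase of ERK, measured 613, 692 and 689.5 in MDI and 412, 412 and 420.5 in OA, with the OA values close together (log2 fold change -0.68, SE 0.10, limma adjusted p = 0.000607). Dusp5, which acts on ERK in the nucleus, measured 529, 605 and 590.0 in MDI and 393, 317 and 417 in OA (log2 fold change -0.62, SE 0.10, limma adjusted p = 0.00189). Dusp4, a nuclear phosphatase as well, measured 135, 153 and 168 in MDI and 87.2, 83.2 and 75.3 in OA (log2 fold change -0.88, SE 0.14, limma adjusted p = 0.00141). Spry1, an inhibitor upstream of ERK, measured 1027, 1169 and 1106 in MDI and 774, 730.3 and 789.7 in OA (log2 fold change -0.52, SE 0.07, limma adjusted p = 0.000398). Its relative Spry2 measured 906, 913 and 964 in MDI and 913, 872 and 849 in OA and did not pass (limma adjusted p = 0.577). The other two phosphatases prefer the stress kinases p38 and JNK and moved in opposite directions. Dusp8 was 2.26-fold lower, from 86, 104 and 91.3 to 35.8, 49.6 and 39.1 (log2 fold change -1.17, SE 0.18, limma adjusted p = 0.00111), and Dusp10 rose 1.51-fold, from 363, 393 and 455 to 558, 632 and 634 (log2 fold change 0.59, SE 0.09, limma adjusted p = 0.00144). Of 21 immediate early genes, 4 fell (Ccn1, Egr1, Klf4 and Myc), 1 rose (Klf10) and 7 more were lower with all libraries only, with a median of -0.38. Egr1, a zinc finger factor that growth factors induce within minutes, measured 5029, 5635 and 5188 in MDI and 3921, 4147 and 3894 in OA (log2 fold change -0.40, SE 0.06, limma adjusted p = 0.000768). Myc, a driver of growth, measured 5489, 5445 and 4833 in MDI and 4123, 4174 and 4253 in OA (log2 fold change -0.33, SE 0.06, limma adjusted p = 0.00468, or 0.0523 without the variance trend). Fos measured 198, 223 and 199 in MDI and 144, 148 and 159.6 in OA and passed with all libraries only (limma adjusted p = 0.0338). Klf10, a gene that TGF-β induces, measured 1595, 1639.6 and 1631 in MDI and 1944, 1963 and 2108 in OA (log2 fold change 0.30, SE 0.06, limma adjusted p = 0.00625). Early genes also respond to handling at harvest, whose part was not tested. Hbegf, Ereg, Dusp5, Dusp10 and Klf10 were named after their values were seen.

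**Figure D3:**
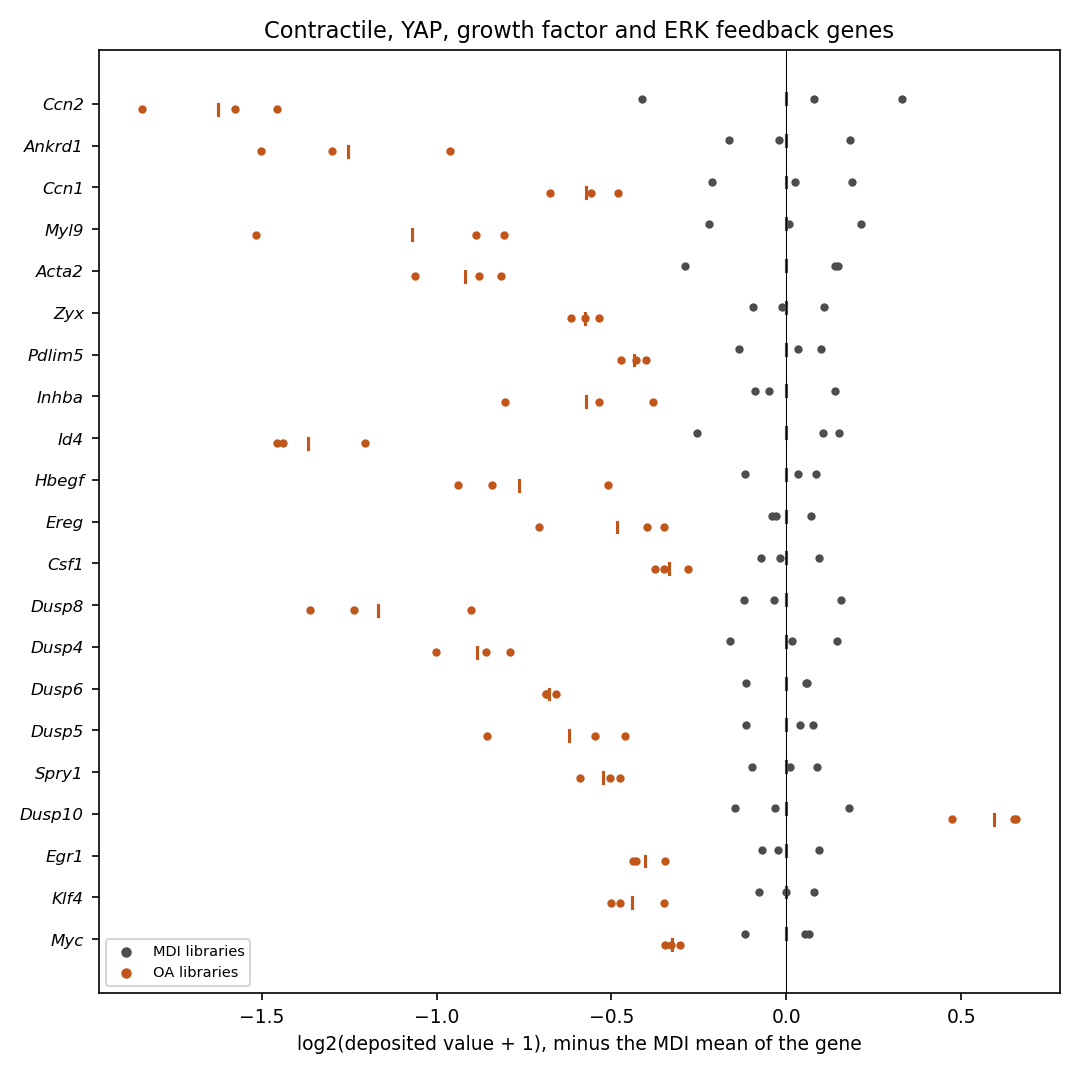
Each row is a gene of the contractile, YAP, TGF-β, growth factor, ERK feedback or early response lists, with 1 point per library as log2(deposited value + 1) minus the gene's MDI mean, grey for MDI and orange for OA, and short bars for group means (n = 3). In 20 of the 21 rows the OA libraries lie below all MDI libraries, farthest for Ccn2, and Dusp10 lies above. The rows are a choice among genes that rose or fell, so the count does not describe the lists. Klf10, Angpt1 and Angpt4, which rose on these lists, are not shown.

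Among genes of the matrix around the cells, the members that moved were proteases, inhibitors, a crosslinker and other matrix proteins. Of 46 proteases and inhibitors, 7 rose, 2 fell and the median was 0.13. Htra3, a secreted serine protease that binds TGF-β family proteins, measured 123, 132 and 151 in MDI and 453, 384 and 475 in OA, a 3.23-fold rise (log2 fold change 1.69, SE 0.13, limma adjusted p = 1.12e-06). Mmp3, a stromelysin that cuts many matrix proteins, measured 42.8, 52.2 and 48.4 in MDI and 153, 158 and 135 in OA (log2 fold change 1.62, SE 0.19, limma adjusted p = 9.2e-05). Both groups of Mmp3 were far apart although the gene was low, with every MDI value above the floor of its library. Adamts15, a protease of proteoglycans, rose 1.73-fold (log2 fold change 0.79, SE 0.11, limma adjusted p = 0.000368), and Adam23, an adhesion protein without protease activity, rose 1.31-fold (log2 fold change 0.39, SE 0.06, limma adjusted p = 0.000829). The others that rose were Serpine2, Mmp19 and Adamts9, and those that fell included the aggrecanase Adamts5 (3819, 3778 and 3833 in MDI and 3002, 3188 and 2999 in OA, log2 fold change -0.32, SE 0.06, limma adjusted p = 0.00334). Of 63 laminins and other matrix proteins, 4 rose and 2 fell (median 0.03). Lox, which crosslinks collagen and elastin, had the largest rise in deposited units among the genes that rose, from 38092, 40912 and 47969 to 55523, 64556 and 59982 (log2 fold change 0.51, SE 0.10, limma adjusted p = 0.00695, or 0.0705 without the variance trend and 0.059 without the filter). Fibrillin Fbn1, the core of elastic microfibrils, was 1.4-fold lower, from 18965, 19540.0 and 17368 to 12711, 14034 and 13174 (log2 fold change -0.48, SE 0.06, limma adjusted p = 0.000251). The thrombospondins, matrix proteins that restrain blood vessels, split: Thbs2 rose 1.63-fold (log2 fold change 0.71, SE 0.07, limma adjusted p = 1.63e-05) and Thbs1, an activator of latent TGF-β, was 1.32-fold lower (log2 fold change -0.40, SE 0.06, limma adjusted p = 0.00131). Spon2, a secreted adhesion protein, measured 99.5, 116 and 152 in MDI and 439.6, 301 and 367 in OA (log2 fold change 1.59, SE 0.19, limma adjusted p = 9.25e-05). The basement membrane protein Nid2 measured 1033, 898 and 1035 in MDI and 1410.0, 1402 and 1531 in OA (log2 fold change 0.55, SE 0.08, limma adjusted p = 0.000538). In each of these the groups lay apart, as the rule requires. Of 24 collagens, 0 rose and 0 fell, with 2 lower with all libraries only, and Col1a1, the main fibrillar chain, measured 51179, 57821 and 59291 in MDI and 59166, 60931 and 66199 in OA (limma adjusted p = 0.413). Among 26 integrins and adhesion genes Itgb3, the β3 chain of the vitronectin receptor, was the 1 that rose, at 248, 238 and 278 in MDI and 459, 437 and 443 in OA (log2 fold change 0.81, SE 0.11, limma adjusted p = 0.000547), and 0 fell.

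Guidance cues, best known for steering axons, and proteins of the microtubule skeleton moved in smaller numbers. Of 42 guidance genes, 2 rose and 3 fell (median 0.02). Plxna4, a coreceptor for semaphorins, was low in MDI and stood apart in OA, at 19.8, 21.8 and 15.8 in MDI and 64.9, 72.5 and 87.3 in OA (log2 fold change 1.92, SE 0.31, limma adjusted p = 0.00162). The netrin Ntn1 rose 1.26-fold (log2 fold change 0.33, SE 0.06, limma adjusted p = 0.00593). Slit2, a secreted ligand of ROBO receptors, measured 6783, 7484 and 6486 in MDI and 4769, 5225 and 4961 in OA (log2 fold change -0.47, SE 0.06, limma adjusted p = 0.000251). Efnb2, a membrane ligand of Eph receptors, measured 1884, 2039 and 2116 in MDI and 1594, 1591 and 1527 in OA (log2 fold change -0.36, SE 0.06, limma adjusted p = 0.00236). The netrin receptor Unc5c measured 834, 762 and 758 in MDI and 516, 596 and 563 in OA (log2 fold change -0.49, SE 0.09, limma adjusted p = 0.00406), so that a netrin and one of its receptors moved in opposite directions. Jag1, a Notch ligand, was the 1 of 23 Notch and Hedgehog genes that fell, at 1965, 2122 and 2075 in MDI and 1410.4, 1535 and 1366 in OA (log2 fold change -0.52, SE 0.08, limma adjusted p = 0.000797), with 0 that rose. Of 24 tubulins and microtubule regulators, 3 fell and 0 rose, all proteins best known from neurons. They were Map1b (log2 fold change -0.51, SE 0.07, limma adjusted p = 0.000508), Map6 (log2 fold change -0.35, SE 0.06, limma adjusted p = 0.00406) and Dpysl3 (log2 fold change -0.31, SE 0.06, limma adjusted p = 0.00624, or 0.0504 without the variance trend). Among 41 G protein coupled receptors and regulators, 3 rose and 0 fell, namely S1pr3, the orphan receptor Gprc5b (1.39-fold, log2 fold change 0.48, SE 0.06, limma adjusted p = 0.000247) and the endothelin receptor Ednra (1.3-fold, log2 fold change 0.38, SE 0.07, limma adjusted p = 0.00443). Slc8a1, the sodium-calcium exchanger, was the 1 of 36 ion channel and calcium genes that rose (log2 fold change 0.34, SE 0.07, limma adjusted p = 0.00495). Lrp5, a coreceptor of Wnt ligands, was the 1 of 23 Wnt genes that rose, at 5009, 4721 and 5191 in MDI and 7043, 6847 and 8159.8 in OA (log2 fold change 0.56, SE 0.08, limma adjusted p = 0.000586). The ligand Wnt5a measured 1182, 1374 and 1329 in MDI and 1105, 1094 and 1084 in OA, lower with all libraries only (limma adjusted p = 0.0481).

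Both groups had dexamethasone and IBMX, and some genes that answer those agents were lower in OA. Of 21 glucocorticoid targets, 2 fell (Sgk1 and Lcn2) and 0 rose, with a median of 0.04. With all libraries only, 2 more were higher (Nfkbia and Fkbp5) and 1 lower (Tsc22d3). Sgk1, a kinase induced by steroid and by serum, measured 3114, 3486 and 3186 in MDI and 2378, 2484 and 2508 in OA (log2 fold change -0.41, SE 0.06, limma adjusted p = 0.000771). Fkbp5, which binds the receptor's chaperone, measured 8079.9, 8644 and 8636 in MDI and 9708, 9563 and 10386 in OA (limma adjusted p = 0.0253). Tsc22d3, an anti-inflammatory target, measured 3183, 3390.1 and 3714 in MDI and 2896, 2620.4 and 2890.1 in OA (limma adjusted p = 0.0171). Of 23 cAMP response genes, 1 rose and 1 fell (median -0.04), and Akap12, Nr4a1, Il6 and Ptgs2 were lower with all libraries only. Gem, a small GTPase that curbs calcium channels and cell contraction, measured 642, 614 and 709 in MDI and 917, 859 and 889 in OA (log2 fold change 0.44, SE 0.08, limma adjusted p = 0.00328). Fosl2, an AP-1 factor, measured 9299, 8184 and 7939 in MDI and 7199, 6809 and 6638 in OA (log2 fold change -0.30, SE 0.06, limma adjusted p = 0.0107, or 0.0757 without the variance trend). Nfil3, a repressor tied to the clock, was the 1 of 19 clock genes that fell, at 1882, 1711 and 1572 in MDI and 1276, 1177 and 1136 in OA (log2 fold change -0.52, SE 0.08, limma adjusted p = 0.00141), and 0 rose. On the p53 list 3 of 22 fell and 0 rose. Plk2, a polo-like kinase that is also serum inducible, measured 6239, 6891 and 6504 in MDI and 4192, 4032 and 3888 in OA (log2 fold change -0.70, SE 0.06, limma adjusted p = 1.89e-06). Its relative Plk3 measured 174, 164 and 168 in MDI and 119, 114 and 104 in OA (log2 fold change -0.58, SE 0.12, limma adjusted p = 0.00686). The remaining one, Sesn2, an inhibitor of mTORC1, is on the ATF4 list as well. Cdkn1a and Mdm2, the best known p53 targets, did not pass (limma adjusted p = 0.844 and 0.416). Of 43 chemokines, cytokines and NF-κB genes, 1 rose and 2 fell (median -0.08). The TNF receptor Tnfrsf1b rose 1.31-fold (log2 fold change 0.39, SE 0.07, limma adjusted p = 0.00503). The TWEAK receptor Tnfrsf12a measured 1239.9, 1352 and 1296 in MDI and 806, 922 and 1016 in OA (log2 fold change -0.51, SE 0.09, limma adjusted p = 0.00267). Il1rn, which blocks interleukin 1, measured 2434, 2693 and 2774 in MDI and 1839.9, 1769.7 and 1887 in OA (log2 fold change -0.52, SE 0.06, limma adjusted p = 9.18e-05).

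Some lists shifted by a small amount across many members while few members held their own call. Of 20 aminoacyl tRNA synthetases, enzymes that charge tRNA with amino acids, 2 fell (Aars and Gars) and 12 more were lower with all libraries only. Whether this shift is part of the ATF4 amino acid response, which was also lower, was not tested. Aars measured 16009, 16384 and 15976 in MDI and 12147, 12477 and 12521 in OA (log2 fold change -0.38, SE 0.06, limma adjusted p = 0.0015). Gars was 1.28-fold lower (log2 fold change -0.35, SE 0.07, limma adjusted p = 0.00495, or 0.0601 without the variance trend). The mean log2 level of the 20 genes stood between -0.24 and -0.18 in the OA libraries and between -0.04 and 0.06 in MDI, relative to the MDI mean. Of 36 ribosome biogenesis genes, 2 fell (Rrp12 and Utp20), 14 more passed with all libraries only, and the number lower ranged from 2 to 18 when 1 library was left out. Rrp12, an export factor of ribosomal subunits, measured 1428, 1467 and 1289 in MDI and 959, 1034 and 1069 in OA (log2 fold change -0.45, SE 0.08, limma adjusted p = 0.00343). Utp20, of the small subunit processome, measured 4405, 4712 and 4396 in MDI and 3643, 3796 and 3417 in OA (log2 fold change -0.32, SE 0.06, limma adjusted p = 0.00443). The genes for ribosomal proteins themselves showed 0 of 54 that passed in either direction. Of 70 mitosis genes, 1 rose (Cenpf, a kinetochore protein, 1.37-fold, log2 fold change 0.45, SE 0.08, limma adjusted p = 0.00278, or 0.0565 without the variance trend) and 19 more were higher with all libraries only; the number higher ranged from 1 to 27 when 1 library was left out. All 3 OA libraries lay above all 3 MDI libraries for 48 of the 70, beside 13.4% of all genes on that side. The list mean was 0.19 to 0.22 in OA against -0.08 to 0.08 in MDI. The DNA replication list leaned the other way, with 0 that fell and 2 lower with all libraries only. On the lower side 29 of 44 were without overlap, beside 12.6% of all genes. The list mean was -0.18 to -0.11 in OA against -0.02 to 0.03 in MDI.

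Interferon-induced genes, which defend against viruses, had the lowest median of any list (-0.93), with a wide spread between libraries. Of 47 tested, 0 fell by the rule used here, 6 were lower with all libraries only, and 38 had OA values all below MDI values, beside 12.6% of all genes on that side. The list mean was -0.41, -1.30 and -1.03 in OA replicates 1, 2 and 3 and 0.26, -0.03 and -0.23 in MDI replicates 1, 2 and 3. The number lower ranged from 0 to 39 when 1 library was left out. It was 4, 31 and 39 without OA_T0 replicates 1, 2 and 3, and 0 to 16 without an MDI or OA library. The OA_T0 libraries, outside the comparison but within the pooled variance, had list means of -1.67, -2.29 and -0.63. Isg15, a ubiquitin-like interferon product, measured 1434, 999.8 and 871 in MDI and 646, 236 and 451 in OA (limma adjusted p = 0.0683). Ifit1, which binds viral RNA, measured 1731, 1625 and 1393 in MDI and 1155, 571 and 711 in OA (limma adjusted p = 0.0952). OA replicate 1 was the highest OA library for both and was also the library with the low ribosomal RNA share, whose part here was not tested. Antigen presentation had 0 of 22 that fell, 2 lower with all libraries only and a median of -0.27. H2-K1, a class I chain, measured 5598, 5399.5 and 5324 in MDI and 5133, 3917 and 4644 in OA (limma adjusted p = 0.156). B2m, its partner, measured 11982, 11401 and 11002 in MDI and 11123, 8741 and 8832 in OA (limma adjusted p = 0.214).

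**Figure D4:**
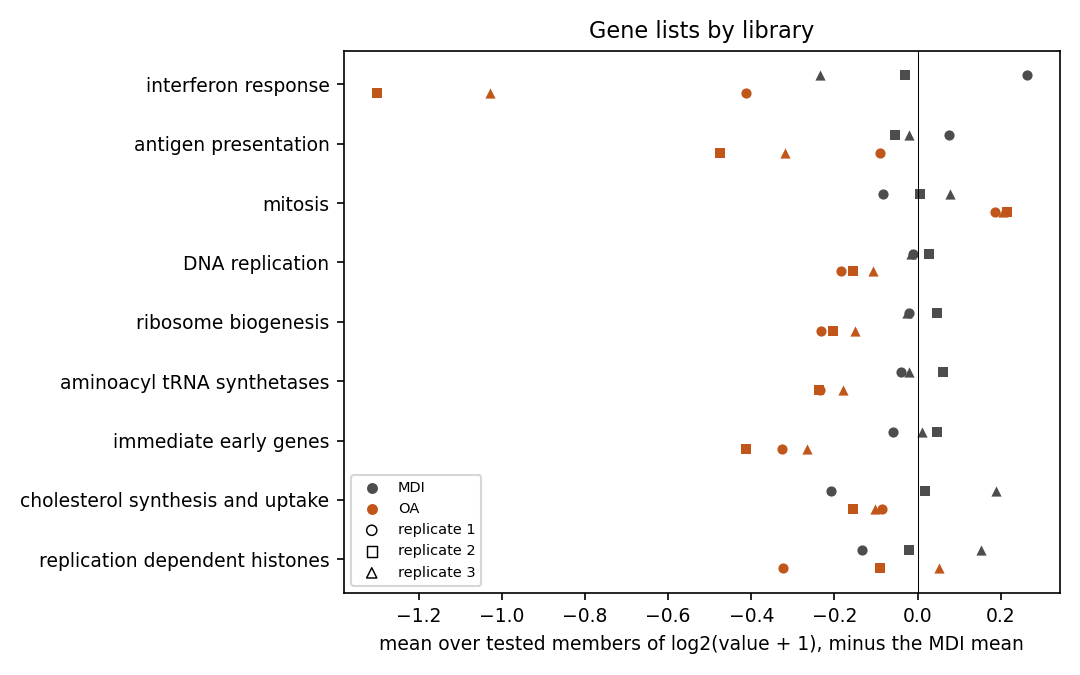
Each point is 1 library, placed at the mean over the tested members of a list of log2(deposited value + 1), minus the MDI mean, in grey for MDI and orange for OA, with circles, squares and triangles for replicates 1, 2 and 3. The interferon list spans from -1.30 to 0.26, while the mitosis, replication, ribosome biogenesis and tRNA synthetase lists show smaller shifts and less spread than it. The mitosis list still ran from -0.08 to 0.08 within MDI, beside 0.19 to 0.22 in OA.

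Stress programmes other than ATF4 held a small number of rises and falls. Of 24 chaperones and unfolded protein response genes of the endoplasmic reticulum, 1 rose and 1 fell (median 0.08). Calr, a calcium-binding chaperone, measured 21839, 22692 and 24226 in MDI and 27977, 28659 and 31657 in OA (log2 fold change 0.36, SE 0.07, limma adjusted p = 0.00443). Herpud1, which helps clear misfolded proteins, measured 1833, 1712 and 1804 in MDI and 1256, 1237 and 1309 in OA (log2 fold change -0.49, SE 0.08, limma adjusted p = 0.00178). Hspa5, the main chaperone sensor, measured 25174, 28608 and 26938 in MDI and 27292, 27641 and 28399.6 in OA and did not pass (limma adjusted p = 0.756). Of 32 NRF2 antioxidant genes, 1 rose (Cat) and 3 were lower with all libraries only (Gclc, Gsta4 and Abcc1). Both held calls of the list end without the variance trend, that of Cat as given above. The 1 that fell was the cystine transporter Slc7a11, which is also an ATF4 target, at 1765, 1933 and 1547 in MDI and 1146, 1217 and 907 in OA (log2 fold change -0.69, SE 0.12, limma adjusted p = 0.00248, or 0.062 without the variance trend). Hdac4, a deacetylase that represses muscle genes, was the 1 of 34 chromatin genes that fell (log2 fold change -0.36, SE 0.07, limma adjusted p = 0.00655). By contrast, 0 members rose or fell among 25 genes of cholesterol synthesis and uptake, 17 heat shock genes, 17 metal and iron genes, 38 autophagy and lysosome genes, 16 complement genes, 18 histones and the 2 tested markers of other cell types. Of 19 sterol export genes, Lpcat3 rose and 0 fell, and of 29 G1 genes Myc fell and 0 rose. For scale, 17 of 25 genes of the PPAR and fat oxidation list and 3 of 18 of the droplet list rose, with 0 that fell in either, and 15 of 33 of the ATF4 list fell, with 0 that rose.

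**Figure D5:**
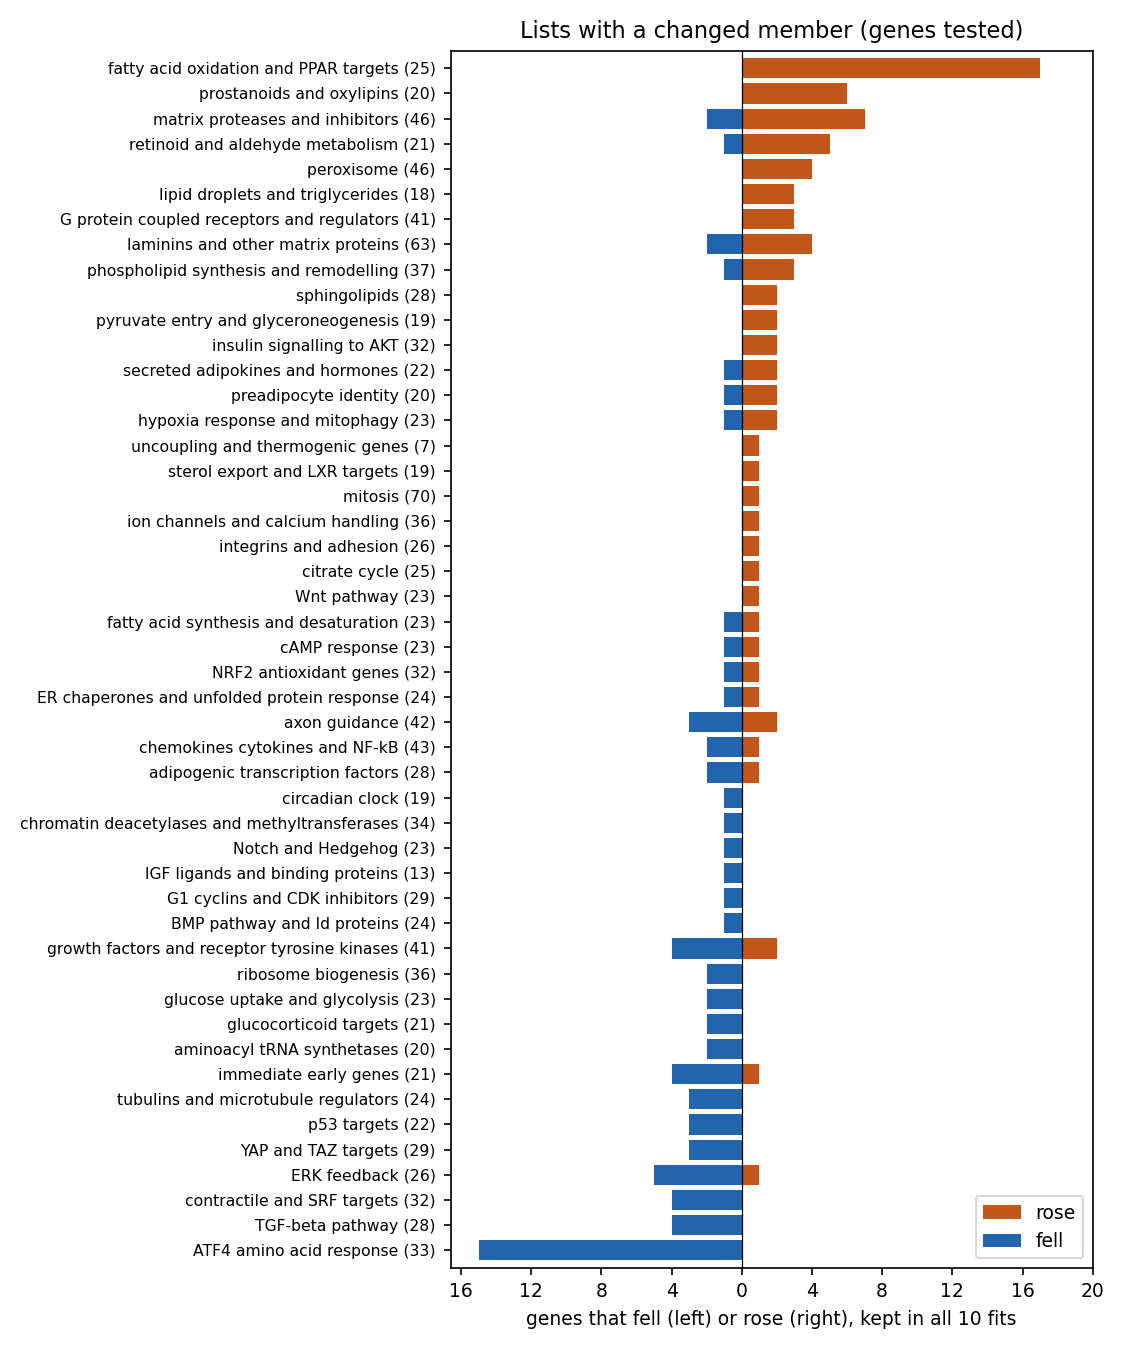
Bars to the right count members that rose and bars to the left members that fell, for the gene lists with at least 1 such member, with the number of tested members in parentheses. The longest bars belong to fat oxidation with PPAR targets (17 rose) and to the ATF4 response (15 fell), followed by matrix proteases (7 rose) and by prostanoids and oxylipins (6 rose).

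A few of the largest changes sat outside these groups. Among the falls, Dennd2d, a DENN domain protein, measured 63.9, 62.7 and 68 in MDI and 25.1, 23.4 and 39.4 in OA (log2 fold change -1.16, SE 0.23, limma adjusted p = 0.00644). The semaphorin Sema3g measured 60.3, 55.5 and 78.9 in MDI and 25.7, 30.9 and 34.1 in OA (log2 fold change -1.07, SE 0.22, limma adjusted p = 0.00909). Tnn, a tenascin of the matrix, measured 238, 166 and 199 in MDI and 95.1, 92.6 and 113 in OA (log2 fold change -0.99, SE 0.16, limma adjusted p = 0.0015). Gdap1l1 measured 76.5, 77.2 and 67.6 in MDI and 35.8, 32.2 and 39.1 in OA (log2 fold change -1.03, SE 0.19, limma adjusted p = 0.00399). Rnd1, a GTPase that dissolves stress fibres, was 1.89-fold lower, from 285, 341 and 286 to 158, 158 and 166 (log2 fold change -0.91, SE 0.14, limma adjusted p = 0.00112). Gadd45a, a stress gene that can halt cell division, was 1.85-fold lower, from 776, 771 and 677 to 454, 366 and 383 (log2 fold change -0.89, SE 0.13, limma adjusted p = 0.000563). Angptl6, a secreted relative of Angptl4, was 1.86-fold lower (log2 fold change -0.89, SE 0.16, limma adjusted p = 0.00288) while Angptl4 rose 12.1-fold. In deposited units, Lox was followed among the rises by genes that included Anxa1, a mediator of glucocorticoid action (13392, 16647 and 16842 in MDI and 20574, 21386 and 23139 in OA, log2 fold change 0.48, SE 0.09, limma adjusted p = 0.00328, or 0.0565 without the variance trend). Among falls the long pentraxin Ptx3, a matrix and immune protein, went from 20289, 22515 and 19812 to 13431, 15494 and 14979.6 (log2 fold change -0.51, SE 0.08, limma adjusted p = 0.00133). By the rule, none of these genes had overlapping groups.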

How the data were processed

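RNA was poly(A)-selected and made into strand-specific libraries, per the labels' protocols. The deposited file holds a signal for each gene and library: normalised counts that are not whole numbers, already divided by the authors by a factor for each library. CASAVA 1.8.2, TopHat, HTSeq, DESeq2 and mm9 are listed, without their roles, in the submitters' processing notes. Low values pile up on even steps, each read here as 1 fragment. From 5 to 50 steps, only 63.1% to 68.9% of values came within 0.05 of a whole number of steps, so reads were not recovered and no count model was run. Estimated depth is the deposited total divided by the step.

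Values were taken as log2(value + 1), a scale that understates the change of low genes. A mean of at least 10 over all 9 libraries let 15002 genes enter the test. It was a two-sided moderated fit in limma 3.58.1 (R 4.3.3) with the trend option, a mean for each of the 3 groups and 1 pooled variance per gene, and Benjamini-Hochberg adjustment took in every gene tested. The procedure was tested on simulated data. The 62 gene lists hold 2127 symbols: 2012 matched the file as written and 44 by a synonym, and 71 are not analysed here. The comparison, its members and the lists were chosen with earlier results of these data known. Named genes are the first 2 of each list, up to 4 members per list that rose or fell with the smallest adjusted p, the 15 largest rises and 15 largest falls with a mean of at least 50 in the higher group, and the 6 largest of each in deposited units. Most genes of fat oxidation, droplets and the ATF4 response were left out of the text. Those given serve for scale, for the promoter windows or as members of another list. A few genes that the rule selects are not reported here. Members outside the rule that are named as passing with all libraries only were named after their values were seen. Alternatives changed the pseudocount, the filter, the scaling, the libraries in the fit, the block and the variance model. Promoter sequences are from RefSeq (GRCm38.p6), matched by symbol; a gene with several windows counts once, with a match in any of them.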

Additional observations from a re-analysis of the deposited data

How the results depend on the processing

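With all libraries there were 514 genes higher in OA than in MDI and 504 genes lower in OA than in MDI. These counts fell to 233 and 234 without a filter on low values, when 27045 genes were tested, and to 205 and 179 without the variance trend, for a cause not tested. Leaving out 1 library at a time gave 211 (without MDI replicate 2) to 658 (without MDI replicate 3) higher and 155 (without MDI replicate 2) to 639 (without OA_T0 replicate 3) lower. The higher count also moved by over 1.5 times without MDI replicate 1 (220), OA replicate 1 (279) and OA replicate 3 (324), and the lower count without MDI replicate 1 (300), OA replicate 1 (287) and OA replicate 2 (317). Both counts stayed within 1.5 times with pseudocounts of 0.5 and 5, a minimum mean of 50, equal totals, quantile normalisation, robust variances or only the 6 libraries. Of the 332 genes that rose or fell, all 332 passed under both pseudocounts, both scalings, the 6-library fit, the replicate block and robust variances. Without a filter 324 passed and without the variance trend 285; among named genes the first removed Pappa (limma adjusted p = 0.0525) and Lox (0.0590), and the second 16: these 2 (0.0786 and 0.0705), Pdgfra (0.0665), Cenpf (0.0565), Lcn2 (0.0734), Pdk1 (0.0717), Cat (0.0543), Pxmp4 (0.0625), Gars (0.0601), Slc7a11 (0.0620), Fam162a (0.0509), Fosl2 (0.0757), Angpt1 (0.0523), Myc (0.0523), Dpysl3 (0.0504) and Anxa1 (0.0565). Same-numbered MDI and OA libraries shared deviations at r = 0.0605, 0.00967 and 0.259, so the numbers were not taken to pair the samples; with a replicate block 433 genes were higher and 417 lower. No gene selected by the naming rule changed sign. Other scalings moved the median log2 fold change by -0.0168 to -0.0123.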
